A study of Mus musculus with 9 samples.

Results

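Lef1, Tcf7, Tcf7l1 and Tcf7l2 encode the 4 LEF/TCF factors of the mouse, and their loci held 54 of the 76253 open chromatin regions found in 9 ATAC-seq libraries of LSK cells. ATAC-seq uses the Tn5 transposase to cut and tag accessible DNA, so that a peak marks an open stretch of chromatin. A region was assigned to one of the 4 genes where its peak summit lay inside the gene or within 50 kb of it with that gene as the nearest protein-coding gene. Lef1 had 12 such regions, Tcf7 had 8, Tcf7l1 had 16 and Tcf7l2 had 18, made of 187 of the 328883 peaks of the series. The genes were named by their family, except that Lef1 was partly chosen by the presence of one region in mutant lists and its absence from the WT lists. Its mutant-against-WT values are therefore a description and carry no test.

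LSK cells are the lineage-negative, Sca-1-positive, Kit-positive fraction of mouse bone marrow that contains the haematopoietic stem cells and early progenitors. The libraries were 2 of Bcat_KO cells (beta-catenin), 2 of HOXA9_KO cells, 2 of PRMT1_KO cells, 1 of dKO cells (beta-catenin and Hoxa9) and 2 of WT cells. The sample titles call the mutants KO while the genotype entries call them knockdown, and neither names the allele, the Cre driver or the age of the mice. The series text speaks of primary transplanted mice and names the Prmt1 mutant alone. It is not stated whether libraries of one group came from separate mice, so spreads and p-values measure the difference between these libraries, which may be technical.

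LEF1 and the TCF proteins bind DNA through an HMG box and have little activating power of their own. When Wnt signalling stabilises beta-catenin, it binds them and brings co-activators to their target genes, and in its absence TLE (Groucho) proteins bind them and repress those genes. TCF7 (also called TCF1) and LEF1 are best known in blood for early T-cell development, TCF7L1 (TCF3) mostly for repression, and TCF7L2 (TCF4) for the intestinal epithelium.

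The lists held 43250 and 45460 peaks in Bcat_KO cells, 39885 and 41349 in HOXA9_KO cells, 44513 and 39881 in PRMT1_KO, 10639 in dKO, and 35581 and 28325 in WT. For comparisons the lists of the 4 paired groups were brought to one length, the 28325 peaks of lowest p in each, and the dKO list was described apart. The LSK label was checked at start sites: 6 to 8 of the 8 LSK marker genes with an annotated start had a start-site peak in each mutant library, 2 in dKO and 6 in each WT library. T-cell markers had start-site peaks at 2 or 3 of 10 genes in each mutant library, at none in dKO and at 3 of 10 in each WT library. Among them Cd3d, Cd3e, Cd3g, Cd8a and Cd247 had none in any library, whereas Bcl11b, Il7r, Cd5, Gata3 and Lck had a peak in some. The fold at Bcl11b was 3.79 to 5.2 where listed in the mutants, and 4.0 and 4.12 in WT. At Il7r it was 5.38 to 9.23 in Bcat_KO and PRMT1_KO and 5.96 in 1 WT library, with no peak in HOXA9_KO. B-cell markers had start-site peaks at 1 or 2 of 7 genes in each mutant library and 1 in each WT library, erythroid markers at 1 or 2 of 4 genes in each mutant library and 2 in each WT library, and mature myeloid markers at 0 to 2 of 5 in the mutant libraries and at 2 and 0 in WT, all 3 lists having none in dKO. The strongest was the erythroid list's Tfrc, at a fold of 11.2 to 15.5 in the mutant libraries and 10.1 and 10.3 in WT. The part of such cells in the results below was not tested. Peaks on chromosome Y below 90 Mb numbered 12 to 16 in each single-mutant library, 6 in dKO and 0 in both WT libraries, so sex or source of the cells cannot be told apart from genotype in any comparison with WT. The detection limit differed little among the paired libraries: at the lowest background level, a peak needed 6 or 7 reads at its summit in each of the single-mutant and WT libraries, and 4 in dKO.

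Of 9 annotated start windows of the 4 genes, the 6 below are shown because they overlap a region described next or, for the first, lie nearest to one. They are RefSeq windows of the GRCm38.p6 assembly, from 250 bases before to 50 after an annotated transcript start, written 5′ to 3′ on the strand of the gene, with matched motifs in capitals. The first is the internal Lef1 start that lies closest to the region found in the mutant libraries, at chr3:131156044-131156343 on the plus strand. The second is a Lef1 start at chr3:131112541-131112840 (plus), which overlaps the Lef1 region that had a peak in all 9 libraries. The third is the Tcf7 start at chr11:52282965-52283264 (minus), the fourth the Tcf7l1 start at chr6:72788996-72789295 (minus), the fifth the main Tcf7l2 start at chr19:55741560-55741859 (plus) and the last an internal Tcf7l2 start at chr19:55895071-55895370 (plus).
Lef1 internal start: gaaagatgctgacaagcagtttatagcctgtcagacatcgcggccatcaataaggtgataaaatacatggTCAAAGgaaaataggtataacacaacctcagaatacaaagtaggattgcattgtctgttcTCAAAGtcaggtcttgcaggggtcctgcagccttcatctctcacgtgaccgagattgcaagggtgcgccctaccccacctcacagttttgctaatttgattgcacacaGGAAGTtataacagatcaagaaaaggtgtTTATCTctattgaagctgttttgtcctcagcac
Lef1 start overlapped by a shared peak: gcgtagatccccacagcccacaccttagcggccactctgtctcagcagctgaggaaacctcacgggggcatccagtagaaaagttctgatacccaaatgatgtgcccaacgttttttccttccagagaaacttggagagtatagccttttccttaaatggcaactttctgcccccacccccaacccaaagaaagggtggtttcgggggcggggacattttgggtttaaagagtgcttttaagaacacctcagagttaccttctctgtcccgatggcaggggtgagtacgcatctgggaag
Tcf7 start: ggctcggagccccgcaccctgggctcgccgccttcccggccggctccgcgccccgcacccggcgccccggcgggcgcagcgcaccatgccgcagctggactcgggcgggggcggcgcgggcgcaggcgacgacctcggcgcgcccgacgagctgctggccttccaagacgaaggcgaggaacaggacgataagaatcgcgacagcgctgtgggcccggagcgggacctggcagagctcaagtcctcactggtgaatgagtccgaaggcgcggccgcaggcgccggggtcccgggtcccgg
Tcf7l1 start: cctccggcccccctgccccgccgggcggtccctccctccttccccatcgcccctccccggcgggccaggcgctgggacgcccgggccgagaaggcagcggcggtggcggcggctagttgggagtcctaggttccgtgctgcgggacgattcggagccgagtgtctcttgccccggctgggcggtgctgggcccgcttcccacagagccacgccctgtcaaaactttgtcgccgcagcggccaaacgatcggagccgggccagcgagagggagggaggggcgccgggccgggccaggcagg
Tcf7l2 main start: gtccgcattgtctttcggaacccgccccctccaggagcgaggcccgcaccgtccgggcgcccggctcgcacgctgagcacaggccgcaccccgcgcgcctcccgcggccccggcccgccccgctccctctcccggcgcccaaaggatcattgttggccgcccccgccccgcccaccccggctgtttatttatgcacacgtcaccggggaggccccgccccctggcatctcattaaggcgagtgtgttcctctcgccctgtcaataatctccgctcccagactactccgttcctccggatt
Tcf7l2 internal start: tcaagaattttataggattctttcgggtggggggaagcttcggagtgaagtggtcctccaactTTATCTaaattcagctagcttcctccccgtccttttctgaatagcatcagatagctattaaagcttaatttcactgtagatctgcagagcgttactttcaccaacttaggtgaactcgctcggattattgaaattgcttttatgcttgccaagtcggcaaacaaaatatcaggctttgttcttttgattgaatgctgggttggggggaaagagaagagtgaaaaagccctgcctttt

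The internal starts of Lef1 and Tcf7l2 differed from the starts at the 5′ ends of the genes. The internal Lef1 window had 43.7% GC and 5 CpG sites, and the internal Tcf7l2 window had 42.0% GC and 7 CpG sites. The second printed Lef1 window, which also lies inside the gene, had 51.7% GC and 8 CpG sites. The Tcf7 window had 76.3% GC with 45 CpG sites and the Tcf7l1 window 75.3% with 34, and the main Tcf7l2 window also had 34 CpG sites, against a median of 52.7% GC over all 32851 RefSeq promoter windows. The 3 windows not shown were also rich in GC: the 2 at the 5′ end of Lef1 had 67.3% each, with 18 and 21 CpG sites and no motif match, and a further Tcf7 window had 64.3%, with 17 CpG sites and 2 ETS matches. Of 7 motifs searched on both strands, the internal Lef1 window held the TCF/LEF core CTTTGA at 2 places, at −180 and −120 from the start, both written in capitals as TCAAAG. It also held the GATA motif AGATAA as its reverse complement TTATCT and the ETS motif GGAAGT, and no motif overlapped another. The internal Tcf7l2 window held 1 GATA match, and the other 4 printed windows held none of the 7. CTTTGA is present in 16% of all windows, AGATAA in 11.2% and GGAAGT in 23.8%, while the RUNX motif TGTGGT is in 16.8%, TTTATGG (HOX9 type) in 2.7%, TGATTTA (HOX with a TALE partner) in 3.0% and TGANTCA (AP-1) in 7.8%. A match describes letters and is no evidence of binding.

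**Figure D1:**
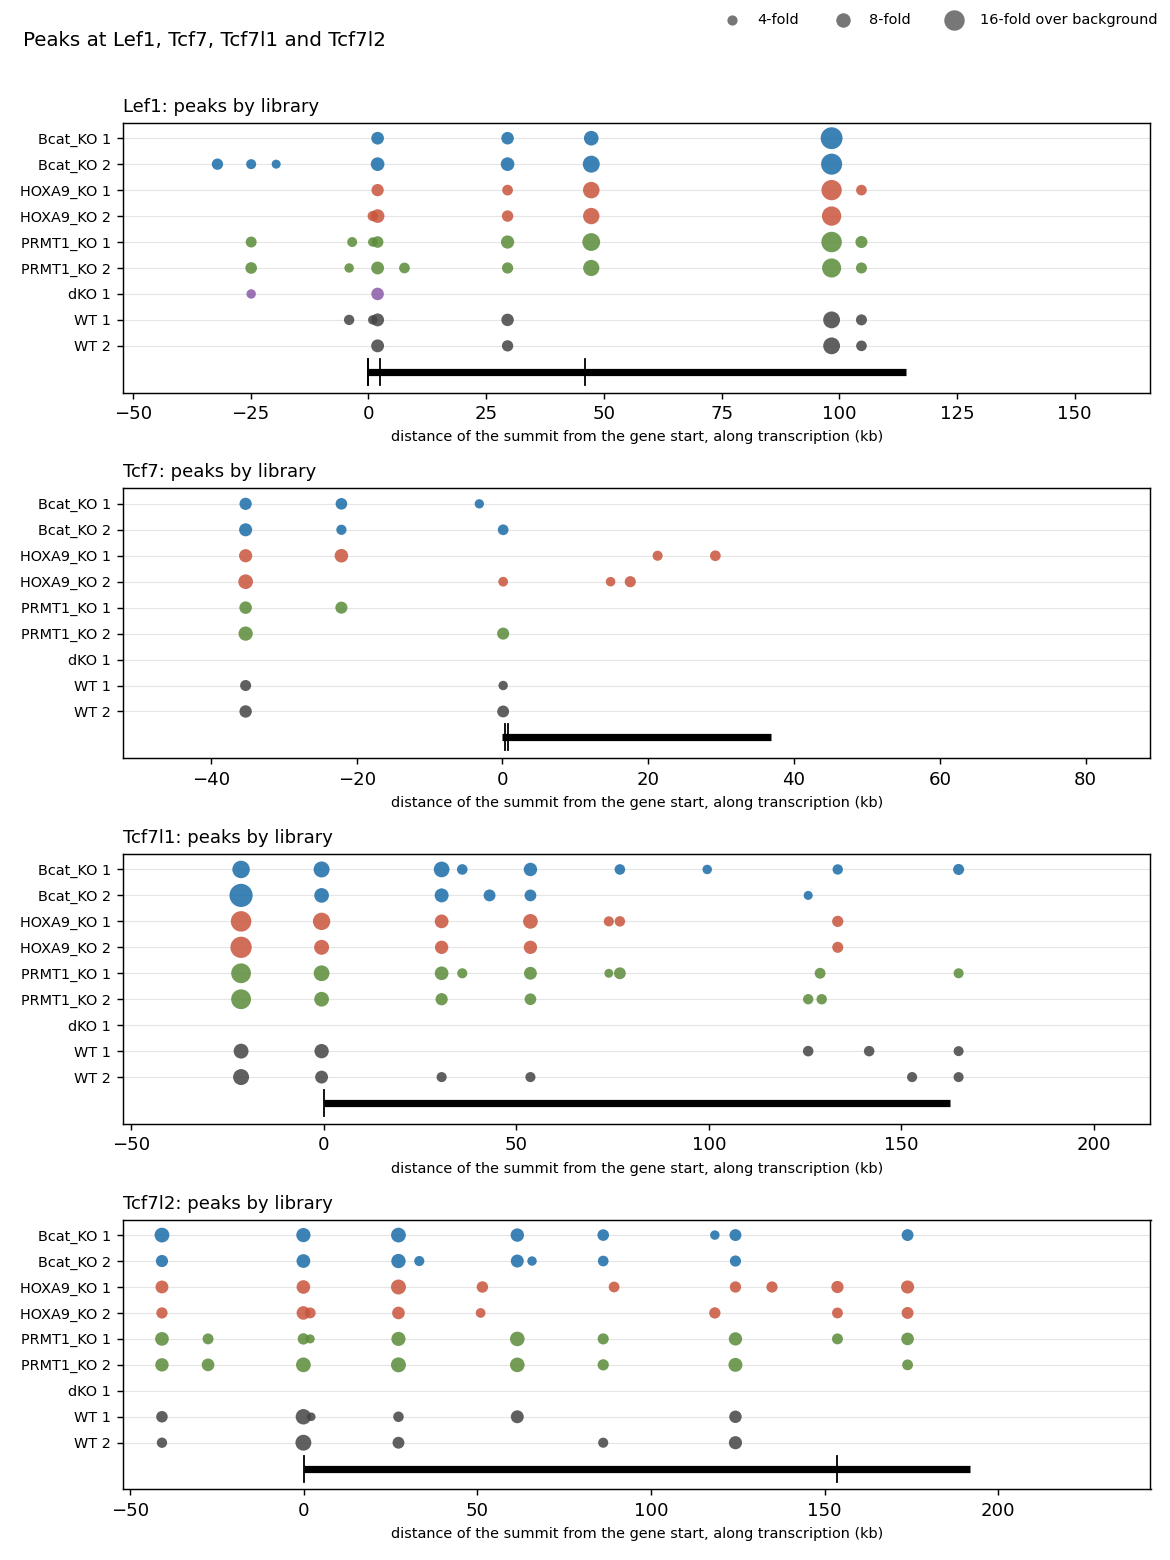
Peak summits at Lef1, Tcf7, Tcf7l1 and Tcf7l2 by distance from the gene start along transcription (kb), one row per library with Bcat_KO, HOXA9_KO and PRMT1_KO above dKO and WT. Dot area is proportional to the authors' fold over background, the black bar is the gene body and ticks are annotated starts. The column of dots 47.3 kb into Lef1 is filled in all 6 single-mutant rows and empty in the dKO and WT rows.

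Regions are named below by the distance of their summit from the gene's 5′ end. The value given per library is the authors' fold enrichment over background at the summit, as deposited, which describes a peak within its own list. Start-site peaks of protein-coding genes had a median fold of 9.8 to 10.59 in the single-mutant libraries and 9.09 and 9.1 in WT. Over all peaks the median was 5.99 to 6.39 in the single-mutant libraries and 5.68 and 6.31 in WT. The share of all regions whose fold did not overlap between mutants and WT was not counted. Nothing is read from such cases below.

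At Lef1, on chromosome 3 from 131110297 to 131224357 (plus strand), the most marked feature was a region 47.3 kb into the gene (131157381 to 131157911). It lies in the gene body, 1345 bp beyond the internal start whose window is printed first. Its fold was 8.25 and 11.1 in Bcat_KO cells, 10.6 and 10.3 in HOXA9_KO cells, and 12.2 and 10.1 in PRMT1_KO, and the region had no peak in dKO or in either WT list as deposited. The 6 single-mutant libraries averaged 10.4 ± 1.29 (SD, n = 6), with 25 to 44 reads at the summit over a background of 2.07 to 2.70 reads. The peak stood between positions 6894 and 12265 in the mutant lists, thus within the strongest 14162 peaks, the upper part of each shortened list. The groups did not overlap, since no WT library listed it.

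This was the single region of the 4 loci that met the rule for an opened region, which is to lie in that upper part of both mutant lists and in neither shortened WT list. The rule was met for Bcat_KO (0.311% of all regions opened), for HOXA9_KO (0.508%), for PRMT1_KO (0.219%) and for the 6 single-mutant libraries as one set (0.0406%). Because Lef1 was chosen with this region in view, these counts are given beside the background and nothing is read from them. The 3 comparisons share the same 2 WT libraries. No region of the 4 loci was closed in Bcat_KO (0.0961% of all regions closed), HOXA9_KO (0.182%), PRMT1_KO (0.0823%) or all 6 mutant libraries (0.0149%). For opened, closed and presence calls, here and below, all regions are those in a shortened list of the groups compared. Against WT these were 40564 for Bcat_KO, 41174 for HOXA9_KO, 40111 for PRMT1_KO and 46847 for all 6 mutant libraries.

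The strongest Lef1 region lay 98.4 kb into the gene (131208267 to 131209204). Its fold was 18.3 and 17.0 in Bcat_KO cells, 15.8 and 14.4 in HOXA9_KO cells, and 16.1 and 14.0 in PRMT1_KO, against 10.9 and 10.9 in WT, with no peak in dKO. All 6 mutant values were above both WT values, and how many regions of the genome are so by fold was not counted. By list position, 8.57% of the regions in all 8 shortened lists were. The list positions were 1363 and 2466 in Bcat_KO cells, 2229 and 4200 in HOXA9_KO cells, and 2309 and 3574 in PRMT1_KO, against 5413 and 5606 in WT. The mean mutant fold was 15.9 ± 1.62 (SD, n = 6) and the mean WT fold 10.9 ± 0.014 (SD, n = 2).

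Another Lef1 region, 2.0 kb into the gene (131111984 to 131112582), overlaps the second printed window and was the sole region of the 4 loci with a peak in all 9 lists. Its fold was 6.18 and 7.16 in Bcat_KO cells, 5.78 and 7.19 in HOXA9_KO cells, 5.16 and 6.35 in PRMT1_KO, 6.05 in dKO, and 6.41 and 6.36 in WT. The fold values of mutants and WT overlapped, whereas the list positions did not: 16465 to 24662 in the 6 mutant libraries against 12403 and 13471 in WT, that is, weaker in the mutant lists. The 2 measures thus differ, since a position depends on the other peaks of the list. The upstream starts of Lef1, at the 5′ end of the gene, had a weak region 0.9 kb downstream, with a fold of 4.09 in 1 HOXA9_KO library, 3.4 in 1 PRMT1_KO library and 3.4 in 1 WT library, and no peak in the other lists.

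Further Lef1 regions were weaker. A region 29.6 kb into the gene had fold values of 6.04 and 7.15 in Bcat_KO cells, 4.41 and 5.01 in HOXA9_KO cells, 6.71 and 4.85 in PRMT1_KO, and 5.96 and 4.92 in WT. One at 104.7 kb had 4.41 in 1 HOXA9_KO library, 5.59 and 4.68 in PRMT1_KO, and 4.68 and 4.37 in WT, with no peak in Bcat_KO. At 24.9 kb upstream a region was listed in 4 libraries, at 3.85 in 1 Bcat_KO library, 4.62 and 5.23 in PRMT1_KO and 3.41 in dKO, the last resting on 4 reads. The other 5 Lef1 regions were each found in 1 or 2 lists.

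Tcf7 had the fewest regions and, with each gene taken at its strongest annotated start, the weakest start peak. Its start region (52282887 to 52283441, chromosome 11, minus strand) overlaps the printed Tcf7 window, the richest of the 6 in CpG sites. It had a fold of 4.42 in 1 Bcat_KO library, 3.64 in 1 HOXA9_KO library, 5.6 in 1 PRMT1_KO library, and 3.4 and 5.42 in WT, so it was listed in 3 of 6 mutant libraries, not in dKO, and in both WT libraries. The one Tcf7 region in all 8 paired lists lay 35.2 kb upstream (52318442 to 52318907). There the fold was 5.76 and 6.53 in Bcat_KO cells, 6.7 and 8.25 in HOXA9_KO cells, and 6.03 and 7.81 in PRMT1_KO, against 4.68 and 5.91 in WT, and mutant and WT values overlapped. A region 22.1 kb upstream had fold values of 5.18 and 4.02 in Bcat_KO, 7.06 in 1 HOXA9_KO library and 5.62 in 1 PRMT1_KO library, with no peak in dKO or WT. The other 5 Tcf7 regions were each in 1 list.

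At Tcf7l1, on chromosome 6 from 72626371 to 72789045 (minus strand), the strongest region lay 21.5 kb upstream of the start (72810267 to 72810742). Its fold was 11.8 and 20.6 in Bcat_KO cells, 16.1 and 17.4 in HOXA9_KO cells, and 15.0 and 15.1 in PRMT1_KO, against 8.5 and 9.82 in WT, with no peak in dKO. Every mutant value lay above both WT values, which was not counted over all regions by fold and held for 8.57% by list position. The 2 Bcat_KO libraries were further apart than any other pair at this region. The list positions were 5666 and 1065 in Bcat_KO cells, 2761 and 2745 in HOXA9_KO cells, and 4149 and 3763 in PRMT1_KO, against 9727 and 7114 in WT. At the summit 40 to 77 reads were estimated in the mutant libraries, over a background of 2.39 to 2.88. In WT there were 24 and 23, over 1.94 and 1.44, and these reads are not corrected for depth.

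The Tcf7l1 start region (72788412 to 72789707) overlaps the printed Tcf7l1 window. Its fold was 9.79 and 8.29 in Bcat_KO cells, 11.6 and 8.57 in HOXA9_KO cells, and 9.59 and 8.33 in PRMT1_KO, against 7.88 and 6.36 in WT. Inside the gene, regions at 30.6 and 53.7 kb were listed in all 6 mutant libraries and in 1 of 2 WT libraries as deposited. At 30.6 kb the fold was 9.46 and 7.51 in Bcat_KO cells, 7.29 and 6.83 in HOXA9_KO cells, and 7.21 and 5.77 in PRMT1_KO, against 3.93 in the 1 WT library. At 53.7 kb it was 6.92 and 5.36 in Bcat_KO cells, 8.32 and 6.83 in HOXA9_KO cells, and 6.34 and 5.24 in PRMT1_KO, against 3.94 in the same WT library. Neither met the opened rule in any comparison. The other 12 Tcf7l1 regions were in 1 to 4 lists each, at fold values between 3.07 and 5.43.

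At Tcf7l2, on chromosome 19 from 55741797 to 55933659 (plus strand), the start region (55741048 to 55741982) ran the other way. Its fold was 7.75 and 7.25 in Bcat_KO cells, 7.12 and 7.09 in HOXA9_KO cells, and 5.01 and 8.35 in PRMT1_KO, against 9.17 and 9.7 in WT, with no peak in dKO. All 6 mutant values lay below both WT values, which was not counted over all regions by fold. By list position it held for 9.73% of the regions in all 8 shortened lists. Positions were 12226 and 15728 in Bcat_KO cells, 13409 and 15290 in HOXA9_KO cells, and 24630 and 12331 in PRMT1_KO, against 7528 and 6300 in WT.

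An intragenic Tcf7l2 region at 27.2 kb (55768902 to 55769345) had fold values of 8.39 and 7.89 in Bcat_KO cells, 8.59 and 6.13 in HOXA9_KO cells, and 7.65 and 8.58 in PRMT1_KO, against 4.25 and 5.41 in WT. The fold values did not overlap between mutants and WT, while the list positions did in HOXA9_KO. The share of all regions with folds so separated was not counted. A region at 61.5 kb (55803053 to 55803762) had 6.9 and 6.46 in Bcat_KO and 8.18 and 8.21 in PRMT1_KO, no peak in either HOXA9_KO library or in dKO, and 6.4 in 1 WT library. A region 40.9 kb upstream was in all 8 paired lists as deposited, with 4.86 to 8.39 in the mutants and 5.11 and 4.11 in WT. The internal start printed last lay under a weak region listed at 5.74 and 4.55 in HOXA9_KO and 4.61 in 1 PRMT1_KO library, and in no other list. A region at 173.9 kb had 5.39 in 1 Bcat_KO library, 6.62 and 5.46 in HOXA9_KO, and 6.14 and 4.53 in PRMT1_KO, with no peak in dKO or WT. One at 124.3 kb was in 7 lists, at 4.8 to 7.51 in 5 mutant libraries and at 5.95 and 6.65 in WT. One at 86.2 kb had 5.18 and 4.4 in Bcat_KO, 4.76 and 4.88 in PRMT1_KO and 3.93 in 1 WT library. The other 10 Tcf7l2 regions were each in 1 or 2 lists.

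**Figure D2:**
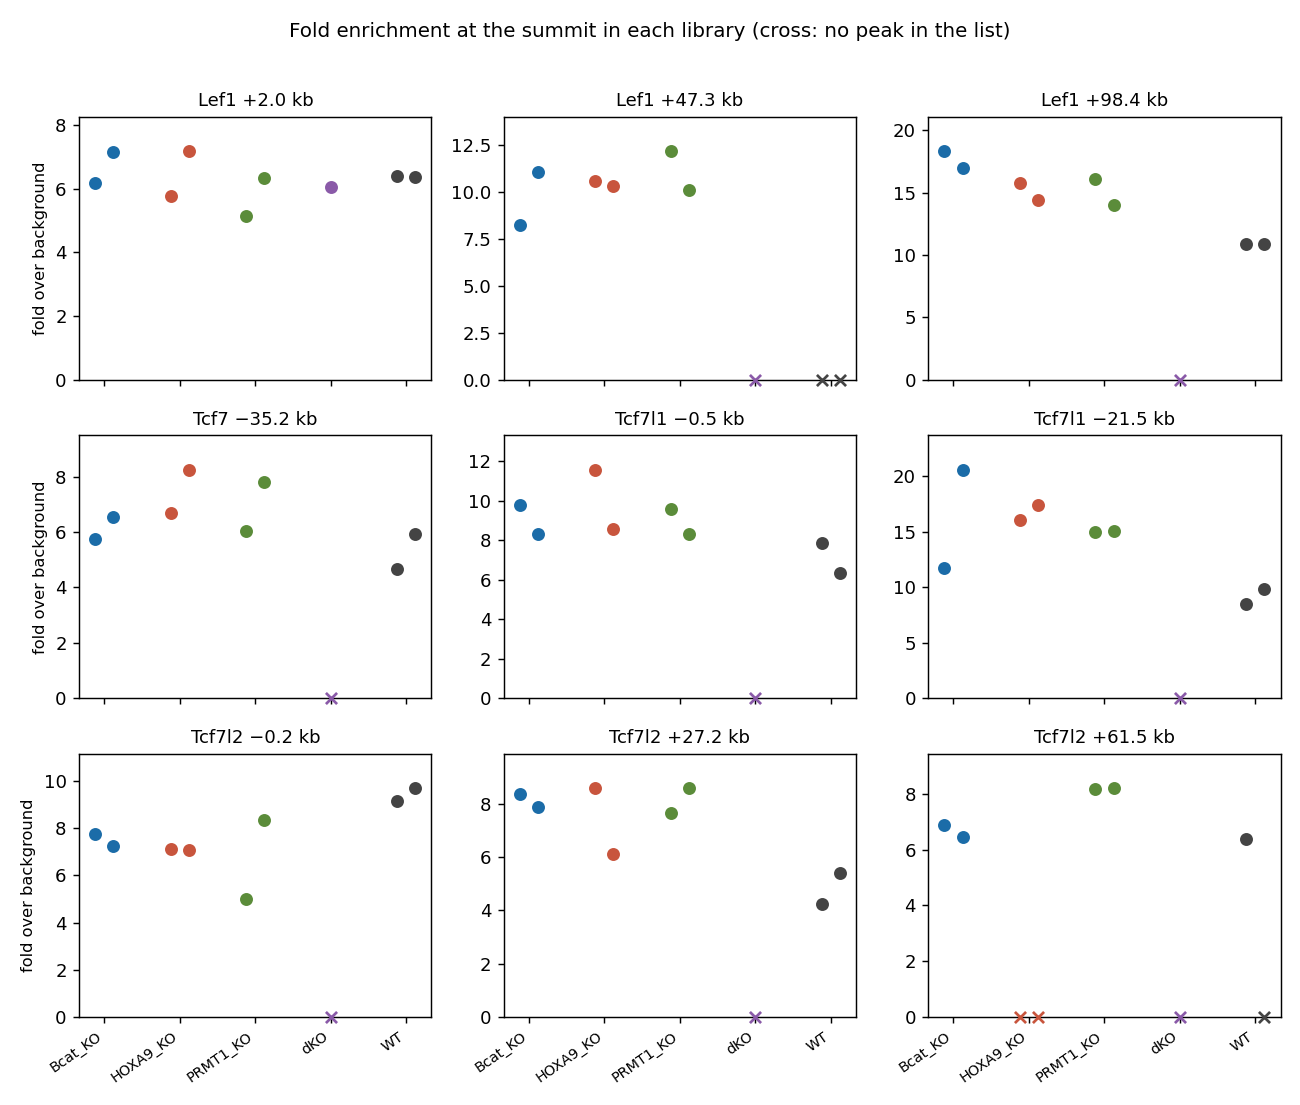
Fold over background at the summit of 9 regions of Lef1, Tcf7, Tcf7l1 and Tcf7l2, 1 point per library, with Bcat_KO, HOXA9_KO, PRMT1_KO and dKO left of WT; a cross at 0 means that the library listed no peak. The Lef1 region at +47.3 kb is filled in the 6 single-mutant libraries alone, and the Tcf7l2 start region is the one panel in which both WT points lie above every mutant point. The share of all regions with folds so separated was not counted.

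Among start sites the 4 genes stood at or below the middle of protein-coding genes in most libraries. Of 17491 protein-coding genes with an annotated start, 57.7% to 59.4% had a peak within 1 kb of a start in the single-mutant libraries, 32.2% in dKO, and 57.5% and 54.8% in WT. The Tcf7l1 start peak was stronger than 34.5% to 62.7% of the start peaks of its own library in the mutants, and than 38.6% and 22.9% in WT. For Tcf7l2 these shares were 11.1% to 36.5% in the mutants and 50.7% and 56.1% in WT, for Lef1 11.9% to 27.2% in the mutants and 25.1% and 22.9% in WT, and for Tcf7, where it had a start peak at all, 1.5% to 15.4% in the mutants and 1.1% and 13.8% in WT. Tcf7l1 therefore had the strongest start peak of the 4 by fold in 5 of 6 mutant libraries, and Tcf7l2 in the second PRMT1_KO library and both WT libraries, with 8.35 against 8.33 in that PRMT1_KO library. The Lef1 values are those of the region 2.0 kb into the gene, near a downstream start. The weak region at the 5′ starts of Lef1 had a fold of 3.4 to 4.09 where listed.

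Presence in the shortened lists gave a looser comparison, in which a region counts when it is in both lists of one group and in neither of the other. Against WT, the Lef1 region at 47.3 kb was present in Bcat_KO alone (5.09% of all regions so called), and the Lef1 region at 104.7 kb in WT alone (4.09%). In HOXA9_KO the Lef1 region at 47.3 kb and the Tcf7l2 region at 173.9 kb were present in the mutant alone (6.06%), and the Lef1 regions at 29.6 and 104.7 kb in WT alone (4.69%). In PRMT1_KO the Lef1 region at 47.3 kb was present in the mutant alone (4.93%), and no region of the 4 loci in WT alone (3.82%).

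Between mutants, no region of the 4 loci was opened or closed by the opened and closed rules, for HOXA9_KO against Bcat_KO (0.125% and 0.117% of all regions opened and closed), HOXA9_KO against PRMT1_KO (0.298% and 0.377%) or Bcat_KO against PRMT1_KO (0.0559% and 0.0293%). By presence, the Tcf7l2 region at 61.5 kb and the Lef1 region at 29.6 kb were in both Bcat_KO lists and neither HOXA9_KO list (3.78% of all regions), and the same Tcf7l2 region was in both PRMT1_KO lists and neither HOXA9_KO list (6.16%). With the lists as deposited this Tcf7l2 region was still in no HOXA9_KO list, and the Lef1 region at 29.6 kb was in both.

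The 7 regions present in all 8 shortened lists could be compared by rank across libraries, on normal scores of the rank among the 15951 regions of the genome with that property, where a higher score is a stronger peak. They were 13.0% of the 54, against 20.9% of all regions. In all 6 mutant libraries the Lef1 region at 98.4 kb and the Tcf7l1 region 21.5 kb upstream ranked above both WT libraries (8.57% of all such regions did), and the Tcf7l2 start region and the Lef1 region at 2.0 kb ranked below both (9.73%).

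**Figure D3:**
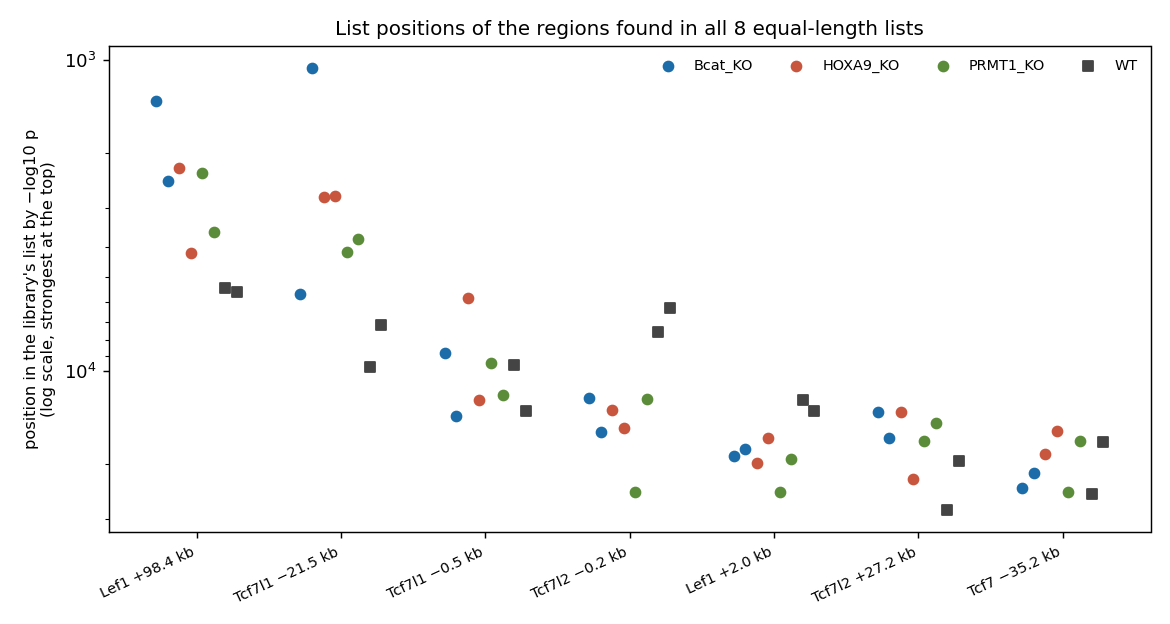
Position of each of the 7 regions present in all 8 equal-length lists, by −log10 p within the list (log scale, strongest at the top), with Bcat_KO, HOXA9_KO and PRMT1_KO as circles left of WT as squares. The Lef1 region at +98.4 kb and the Tcf7l1 region at −21.5 kb have both WT squares below every mutant circle, and the Tcf7l2 start and the Lef1 region at +2.0 kb have them above.

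A limma fit over all 15951 regions, with Benjamini-Hochberg adjustment over all of them, called none of the 5 Tcf7, Tcf7l1 and Tcf7l2 regions at an adjusted p of 0.05 in any comparison with WT. At an unadjusted p under 0.05 there were 2 of 5 in Bcat_KO, 1 of 5 in HOXA9_KO, 2 of 5 in PRMT1_KO and 3 of 5 for the mean of the 3 mutants. Over all regions the fit called 0.194% higher and 0.0251% lower in Bcat_KO cells, 0.426% and 0.32% in HOXA9_KO cells, 0.0% and 0.0% in PRMT1_KO, and 0.577% and 0.069% for the mean of the mutants, while 17.4%, 18.1%, 14.8% and 19.4% of regions had an unadjusted p under 0.05. Calls became fewer in every comparison that had any when 1 of the 8 libraries was left out, also a library of neither side. Such a fit leaves 1 library in a group and changes the shared spread. The loss therefore does not show which library a difference rests on. The planned fit called few regions anywhere, so its counts of 0 do not show that the regions were alike.

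The Tcf7l1 region 21.5 kb upstream differed by 0.99 score units in Bcat_KO minus WT (95% interval 0.174 to 1.81, limma adjusted p 0.215). The HOXA9_KO difference was 1.00 (0.18 to 1.81, limma adjusted p 0.198) and the PRMT1_KO difference 0.74 (-0.082 to 1.55, limma adjusted p 0.386). For the mean of the 3 mutants it was 0.91 (0.241 to 1.58, limma adjusted p 0.154), with 6 of 6 mutant libraries above both WT libraries. When the spread was allowed to follow the mean rank, a setting chosen after the data had been seen, the limma adjusted p was 0.0379 in Bcat_KO cells, 0.029 in HOXA9_KO cells, 0.156 in PRMT1_KO and 0.015 for the mean. That setting called 2.58% of all regions higher in Bcat_KO cells, 3.17% in HOXA9_KO cells, 1.25% in PRMT1_KO and 4.14% for the mean. The call at this region therefore depends on how the spread is estimated. The size of the Bcat_KO difference also varied with the library left out, being 0.429 without the second Bcat_KO library and 1.553 without the first.

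The Tcf7l2 start region differed by -0.94 in Bcat_KO, -0.98 in HOXA9_KO and -1.52 in PRMT1_KO (limma adjusted p 0.335, 0.307 and 0.195). Its mean difference over the 3 mutants was -1.15 (95% interval -2.01 to -0.284, limma adjusted p 0.162), lower in 6 of 6 mutant libraries than in either WT library. The PRMT1_KO value was -0.728 without the first PRMT1_KO library and -2.32 without the second. The Tcf7l2 region at 27.2 kb differed by 1.503, 1.18 and 1.42 in Bcat_KO, HOXA9_KO and PRMT1_KO (limma adjusted p 0.239, 0.328 and 0.305), with a mean of 1.36 (0.275 to 2.46, limma adjusted p 0.179). Without the first WT library these fell to 0.563, 0.236 and 0.476, with a mean of 0.425, and without the second the mean was 2.31. In HOXA9_KO the difference was also 0.658 without the first HOXA9_KO library. The Tcf7l1 start differed by 0.18 on average (-0.518 to 0.88, limma adjusted p 0.782) and the Tcf7 region 35.2 kb upstream by 0.16 (-0.645 to 0.955, limma adjusted p 0.842). The intervals leave room for differences of either sign at these last 2 regions.

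**Figure D4:**
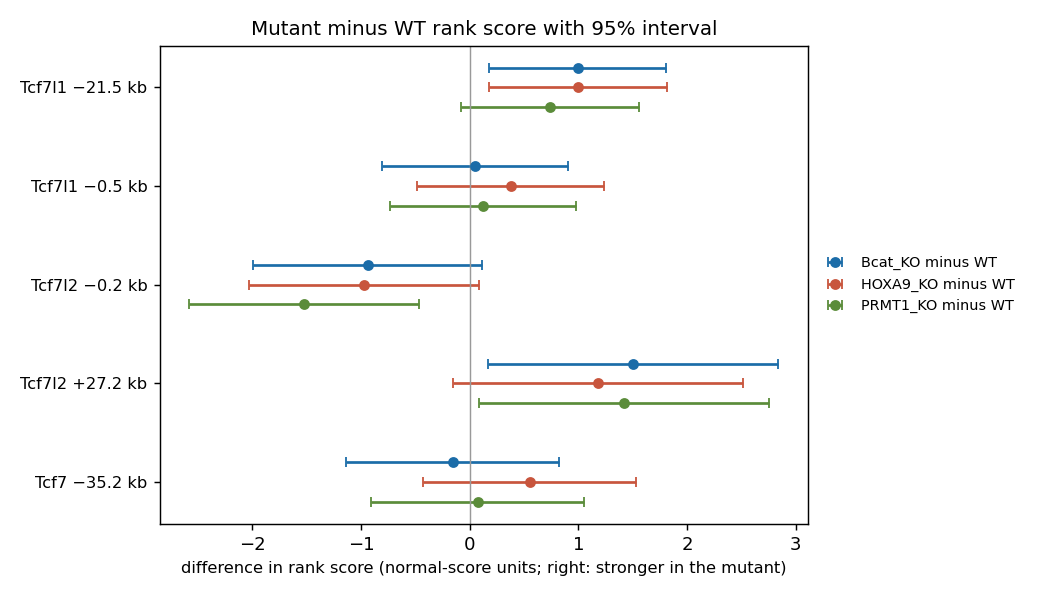
Difference in rank score, mutant minus WT, at the 5 Tcf7, Tcf7l1 and Tcf7l2 regions present in all 8 lists, with unadjusted 95% intervals from the limma fit, 2 libraries per group. The Tcf7l1 region at −21.5 kb lies right of 0 at 0.99, 1.00 and 0.74 and the Tcf7l2 start left of 0 at -0.94, -0.98 and -1.52; none passed after adjustment over all regions.

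Between mutants all 7 regions could be tested, Lef1 included, and limma called none, nor did any have an unadjusted p under 0.05. The lowest adjusted p was 0.63 for HOXA9_KO against Bcat_KO, 0.467 for HOXA9_KO against PRMT1_KO and 0.763 for Bcat_KO against PRMT1_KO. In these 3 comparisons limma called 0.0%, 0.169% and 0.0% of all regions higher and 0.0%, 0.458% and 0.0% lower. At the Tcf7l1 region 21.5 kb upstream the mutants differed by 0.01 (HOXA9_KO minus Bcat_KO, 95% interval -0.812 to 0.823), 0.26 (HOXA9_KO minus PRMT1_KO, -0.556 to 1.08) and 0.26 (Bcat_KO minus PRMT1_KO, -0.561 to 1.07), so differences near 1 unit lie inside or at the edge of the last 2 intervals.

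The dKO library listed peaks at 2 of the 54 regions (3.7%), against 13.7% of all regions, both at Lef1. Where all 8 paired libraries were strong, within the strongest 10639 peaks of each, dKO listed 77.5% of 6633 regions, but neither of the 2 such regions here (Lef1 at 98.4 kb and Tcf7l1 21.5 kb upstream). The lowest background level was 0.461 reads in dKO, against 1.031 to 1.604 in the paired libraries. With 1 library, a short list and this lower background, fewer open sites cannot be told apart from a shallower library.

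The distance limit left out strong neighbours. The farthest region kept lay 40.9 kb from Tcf7l2 and the nearest ones dropped lay 52.8 kb from Lef1, with a peak in 9 lists and a fold of up to 16.7, and 53.1 kb from Tcf7l2, with a peak in 6 lists and up to 7.28. Of the 54 regions, 22 (40.7%) were in 1 list alone against 33.0% of all regions, and 31 (57.4%) were in neither WT list as deposited against 48.2% of all.

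The regions elsewhere in the genome whose list positions were most like those of the Lef1 region at 47.3 kb, by Euclidean distance of log2 rank over 8 libraries, were nearest to Mras and Tgm5 (distance 0.84 each), Pebp4 (0.90), Pan3 (0.93) and Lama3 (0.96). The Mras region had a fold of 9.03 and 9.03 in Bcat_KO cells, 9.28 and 10.6 in HOXA9_KO cells, and 11.4 and 8.88 in PRMT1_KO, against 3.87 and 4.22 in WT. For the Tcf7l1 region 21.5 kb upstream the nearest were at Ggt5 (1.23) and Maml3 (1.39), for the Tcf7l2 start at Rnf145 (0.51) and Igsf3 (0.65), and for the Tcf7 region 35.2 kb upstream at A630023A22Rik (0.43) and Serpinb6a (0.45).

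The partners and targets of these factors were followed in a list of 44 genes that includes Ctnnb1 (beta-catenin), the TLE co-repressors, Axin2 and Myc. They had 270 regions, of which 163 were in a shortened list and 62 in all 8. By these rules 2 of the 163, both at the receptor gene Lgr5, were opened in HOXA9_KO. None was opened in Bcat_KO, PRMT1_KO or all 6 mutant libraries together, and none was closed. Of all regions in a shortened HOXA9_KO or WT list 0.508% were opened in HOXA9_KO, while the 163 come from all 8 lists. The 44 genes were chosen with earlier results of these data known, so nothing is read from the Lgr5 regions. The limma fit called none of the 62 in any of the 7 comparisons. At an unadjusted p under 0.05, 9 were higher and 1 lower in Bcat_KO than in WT, 8 and 3 in HOXA9_KO, and 6 and 3 in PRMT1_KO. These were 16.1%, 17.7% and 14.5% of the 62, close to the 17.4%, 18.1% and 14.8% of all regions. The median difference from WT was -0.061 in Bcat_KO, -0.066 in HOXA9_KO and 0.079 in PRMT1_KO, against -0.02, -0.015 and -0.016 for all regions. With the spread following the mean rank, 3 were called higher in Bcat_KO, 5 in HOXA9_KO and 0 in PRMT1_KO than in WT, and none lower. That is 4.84%, 8.06% and 0.0% of the 62, against 2.58%, 3.17% and 1.25% of all regions, and with so few calls nothing particular to the list is read from it. Under the same setting 1 region, at Jun, was higher and 3, of which 2 lay at Cd44 and 1 at Tle3, were lower in HOXA9_KO than in PRMT1_KO, against 0.809% and 1.86% of all regions. Among the calls against WT was a region at Jun, an AP-1 subunit and a known beta-catenin target, at 1.63 in Bcat_KO (limma adjusted p 0.0854, or 0.0111 with that setting) and 1.87 in HOXA9_KO (limma adjusted p 0.0594, or 0.00315). A region at Tle4, a co-repressor, differed by 1.25 in Bcat_KO and 1.27 in HOXA9_KO (limma adjusted p 0.197 and 0.176), and one at Tnik, a kinase that binds TCF7L2, by 0.94 and 1.12 (limma adjusted p 0.11 and 0.0653). These were named for their values.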

How the data were processed

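ATAC-seq libraries of LSK cells, tagmented with Tn5 per the labels' protocols, were analysed from the peak lists the authors deposited, 1 per library. Per the submitters' processing notes, Bowtie2 2.4.2, SAMtools 1.14, Picard 2.27.4, MACS2 and the build GRCm38 (mm10) were used; the peak calling settings, and any shift of reads for Tn5, are not given in the sources used here. Each deposited list gives the authors' integer score, the fold enrichment (a ratio) at the summit, −log10 p and −log10 q, and the summit's offset. Every list was cut near a −log10 q of 1. No read totals came with them, so depth is known only through the lists. Reads at a summit were solved from the deposited fold and −log10 p under a Poisson model, and were whole within 0.01 reads for at least 99.7% of peaks in each library.

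Peaks sharing at least 1 bp were merged into regions. The genes came from RefSeq (GRCm38.p6), and all 4 matched. The members and lists were chosen with earlier results of these data known. Paired groups were compared at the common length of 28325 peaks: 2 against 2 libraries cannot give an exact p below 0.333, so presence calls carry no p. Rank scores were fitted with limma 3.58.1 in R 4.3.3 over 15951 regions, as planned with one prior spread. The fit with a trend was added after the data were seen, and both were tested on simulated data. There the planned fit recovered the sizes of the shifts but called none of the shifted regions, and the fit with a trend called many of the larger shifts. The simulated spread followed the mean rank, as the fit with a trend assumes, and shifts were set in HOXA9_KO alone. The simulation therefore cannot rank the fits or give the power of the planned fit in these data. Counts of 0 from the planned fit still say little. The regions named were those opened or closed, the 3 best ranked of each locus, those nearest an annotated start, those with a dKO peak, and any past the adjusted threshold; others were chosen after their values were seen. The sample titles do not say whether same-numbered libraries belong together, and the main fit did not pair them. Alternatives covered list length, peak threshold, overlap, ranking, distance, filter, scale and left-out libraries.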

Additional observations from a re-analysis of the deposited data

How the results depend on the processing

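The count of opened regions against WT was 1, at Lef1, in HOXA9_KO and PRMT1_KO under every alternative run. In Bcat_KO, and in all 3 single mutants together, the count fell to 0 when peaks needed a −log10 q of at least 5. The Lef1 peak itself passed that threshold, at a −log10 q of 15.8 to 34.5 in the single-mutant libraries. The common list and its upper part, which the opened rule uses, are shorter under it. For HOXA9_KO against Bcat_KO the count of closed regions was 0, and 1 with lists as deposited, while that over all regions was 160 in place of 45. For HOXA9_KO against PRMT1_KO it was 0, and 1 with lists as deposited, with ranking by fold, and without the first PRMT1_KO library (range 0 to 1 over left-out libraries), while all regions gave 370, 171 and 367 in place of 148. The median number of regions per library was 2 for Tcf7, 0.5 at a −log10 q of at least 5 and 0 within 20 kb; 4 for Tcf7l1 and 2.5 at that q; 5.5 for Tcf7l2 and 3 at that q. The limma counts of 0 against WT became 1 in Bcat_KO, 1 in HOXA9_KO and 1 for the mean of the mutants with the spread following the mean rank (added after the data were seen), each time the Tcf7l1 region 21.5 kb upstream. That region kept its direction under 16 of 16 alternatives in each comparison, and apart from that setting none brought it past the threshold. The Tcf7l1 start reversed to -0.072 without the second WT library (range -0.072 to 0.435 over left-out libraries), and the Tcf7 region 35.2 kb upstream to -0.015 without the second PRMT1_KO library and -0.347 without the first WT library (range -0.347 to 0.657). The cause was not tested. Deviations of same-numbered libraries correlated at -0.007 to 0.038, so no strong shared shift was seen. This cannot show whether such libraries were prepared together. With the replicate number as a block the limma count of called regions at the 4 loci stayed at 0 in every comparison. Over the whole genome the block left calls for the mean of the mutants alone, 55 higher and 6 lower in place of 92 and 11. Short lists and 2 libraries per group limit what could be detected.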
